A study of Mus musculus with 12 samples.

Results

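Genes of glycolysis and of the response to low oxygen were examined in mouse embryonic fibroblasts that lack Sos1, Sos2 or both. The set holds 36 listed gene symbols, and a gene belongs to it where the array annotation gives its symbol. Of these, 34 were measured, among 19505 named genes on the arrays, and Gpi1 and Eno1 were not analysed here. The 34 genes were described in 4 groups by role: 18 of glucose transport, glycolytic enzymes and lactate handling, 3 regulatory kinases, 3 genes of HIF1 and its oxygen sensors, and 10 hypoxia-induced genes outside glycolysis. Every measured gene was represented by 1 probe set, and the fit had no filter on low values.

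The cultures were primary, low-passage fibroblasts of strain C57/BL6 from embryos of embryonic day 13.5, with 3 arrays for each of the groups WT, Sos1KO, Sos2KO and Sos1/2DKO. All 4 groups, WT included, had been treated with 4-hydroxytamoxifen, the ligand of tamoxifen-inducible Cre recombinase, for 12 days, and RNA was taken from subconfluent, growing cultures. The labels name no Cre driver or floxed allele, and their titles number the arrays within a group as biological replicates, with no embryo or litter named. Sos1 and Sos2 encode exchange factors that load RAS proteins with GTP, and the comparisons ask what the loss of each gene, or of both, does to expression.

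Values are log2 RMA levels of a probe set, on which a difference of 1 is a doubling, and levels are compared between arrays for the same gene, never between genes. A gene was called where its adjusted p in limma, over all 19505 genes, was under 0.05. Sos1 lay between 7.13 and 7.96 on the Sos1KO and Sos1/2DKO arrays and between 8.77 and 9.38 on the other 6, and Sos2 lay between 7.56 and 8.03 on the Sos2KO and Sos1/2DKO arrays and between 8.65 and 9.23 on the others. The 9 measured fibroblast markers had group means from 10.41 to 10.67, and 8 of them were above a guide to weak signal, the 75th percentile of the intron control probe sets, on every array (Lum was below it on 1). The 3 Y-linked genes averaged 6.12 to 8.10 on all Sos1/2DKO arrays, WT replicate 1, Sos1KO replicate 2 and Sos2KO replicates 1 and 3, and 3.56 to 3.95 on the other 5 arrays. The spike-in control Dap, a bacterial transcript, was at 6.05 to 9.32 on 5 arrays, namely Sos1KO replicate 3, Sos1/2DKO replicate 1 and all Sos2KO arrays, and at 3.59 to 3.82 on the other 7, so spike-in and genotype cannot be told apart for Sos2KO against WT. In RNA from whole cultures, fewer cells of a kind and less RNA per cell cannot be told apart.

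Glycolysis turns glucose into pyruvate in the cytosol, and lactate dehydrogenase then converts pyruvate to lactate, which monocarboxylate transporters carry out of the cell. The transcription factor HIF1 raises many of these genes when oxygen is low. Its alpha subunit, encoded by Hif1a, is hydroxylated by the EGLN enzymes in the presence of oxygen and is then degraded, so that its activity is set largely by protein stability and less by transcript level. In fibroblasts, RAS signalling and MYC are also known to raise glycolytic genes.

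HIF1 binds DNA at the core letters ACGTG or GCGTG. Both were searched on either strand in the 250 bases before the RefSeq start of each gene (build GRCm38.p6, the most 5′ start where several are listed), in the 32 measured members that have an entry. At least 1 match was present in 26 of the 32 (81.25%), against 45.5% of the 15691 genes named on the array that have an entry. The median number of CG dinucleotides in these windows was 15 in the members and 10 in the genes named on the array. Matches were present in 13 of 18 transport and enzyme genes, in all 3 regulatory kinases, in all 3 genes of HIF1 and its sensors and in 7 of 8 other hypoxia-induced genes. The windows of 6 of the members called below are printed, 5 of them called between Sos1/2DKO and WT and Hif1a in comparisons with Sos2KO. Those of Ldhb and P4ha1, also called in comparisons with Sos2KO, are not printed and hold 1 and 3 matches. Each printed window runs 5′ to 3′ along the gene's own strand and ends 1 base before the start. Capitals mark every match to a core on either strand.
Hk2, chr6:82774455-82774704, minus strand: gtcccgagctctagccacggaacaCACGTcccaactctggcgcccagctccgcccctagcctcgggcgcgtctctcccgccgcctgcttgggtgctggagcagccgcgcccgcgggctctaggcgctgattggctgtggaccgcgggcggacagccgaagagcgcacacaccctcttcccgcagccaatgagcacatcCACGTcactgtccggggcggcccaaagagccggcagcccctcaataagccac
Slc16a3, chr11:120948817-120949066, plus strand: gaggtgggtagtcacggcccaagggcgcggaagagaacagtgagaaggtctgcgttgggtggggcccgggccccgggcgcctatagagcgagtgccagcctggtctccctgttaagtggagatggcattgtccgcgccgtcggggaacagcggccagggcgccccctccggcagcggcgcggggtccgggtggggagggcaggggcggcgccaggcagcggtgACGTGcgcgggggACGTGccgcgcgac
Pfkp, chr13:6648772-6649021, minus strand: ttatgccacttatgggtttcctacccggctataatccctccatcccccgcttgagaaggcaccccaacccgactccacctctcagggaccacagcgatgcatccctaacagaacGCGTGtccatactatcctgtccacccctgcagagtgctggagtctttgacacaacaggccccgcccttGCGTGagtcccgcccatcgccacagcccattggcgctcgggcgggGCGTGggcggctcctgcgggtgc
Egln3, chr12:54203875-54204124, minus strand: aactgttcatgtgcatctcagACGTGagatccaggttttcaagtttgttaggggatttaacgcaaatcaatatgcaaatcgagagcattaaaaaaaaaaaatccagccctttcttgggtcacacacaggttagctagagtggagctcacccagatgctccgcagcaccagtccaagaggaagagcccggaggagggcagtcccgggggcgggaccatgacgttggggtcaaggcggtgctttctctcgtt
Car9, chr4:43506776-43507025, plus strand: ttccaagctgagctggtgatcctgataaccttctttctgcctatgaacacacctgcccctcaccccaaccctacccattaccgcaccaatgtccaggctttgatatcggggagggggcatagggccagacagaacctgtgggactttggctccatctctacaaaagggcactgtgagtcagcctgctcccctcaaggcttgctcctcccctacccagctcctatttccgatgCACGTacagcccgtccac
Hif1a, chr12:73907617-73907866, plus strand: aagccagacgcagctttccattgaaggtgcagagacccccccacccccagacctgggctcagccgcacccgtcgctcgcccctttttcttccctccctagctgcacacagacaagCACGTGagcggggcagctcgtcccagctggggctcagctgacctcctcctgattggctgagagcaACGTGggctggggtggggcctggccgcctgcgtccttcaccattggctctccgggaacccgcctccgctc
The 2 matches of Hk2 begin 226 and 52 bases before the start and those of Slc16a3 27 and 14 bases before it. Egln3 has 1 match, 229 bases before its start, and Car9 has 1, 18 bases before its start. Pfkp holds 3 matches, all to GCGTG. In Hif1a, 3 matches to ACGTG fall in 2 places, because a pair on opposite strands shares letters. Vegfa has 0 matches in its window. The letters alone do not show that HIF1 binds there.

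In cultures without both genes, glycolytic genes were among those called. Hk2, the hexokinase that takes the first step of glycolysis in many growing cells, fell 2.66-fold in Sos1/2DKO against WT, and Slc16a3, a lactate exporter, also fell 2.66-fold. Pfkp, a phosphofructokinase that commits sugar to glycolysis, fell 1.84-fold, and Egln3, an oxygen-sensing hydroxylase, fell 2.10-fold. Car9, a carbonic anhydrase of the cell surface, rose from a level that was below the weak-signal guide on all WT arrays. These 5 of 34 members (14.7%) were called between Sos1/2DKO and WT, where 5.94% of all genes were. Of the 34, 4 were called lower against a background of 4.16%, and 1 was called higher against 1.78%. The median log2 fold change was -0.28 over the members and 0.05 over all genes.

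**Figure D1:**
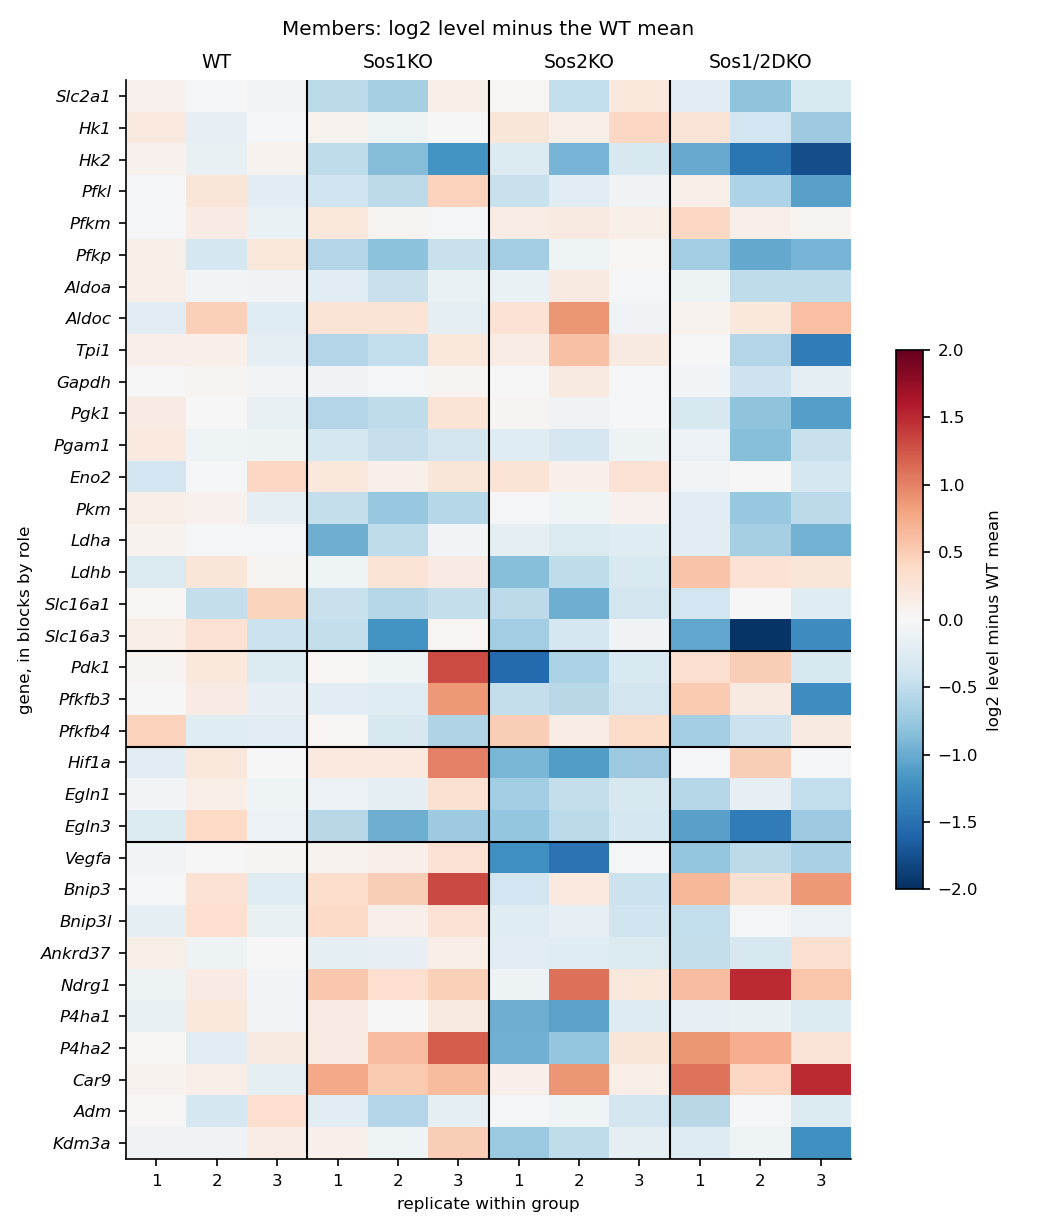
Log2 level of each of the 34 measured members on every array minus the mean of the 3 WT arrays, with genes in rows in 4 blocks by role and arrays in columns by group and replicate. Hk2, Pfkp and Slc16a3 are below the WT mean on all 3 Sos1/2DKO arrays, Hif1a is lower on all 3 Sos2KO arrays than on any other array, and Sos1KO replicate 3 is above the other 2 Sos1KO arrays for Pdk1, Pfkfb3 and Bnip3.

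Hk2 stood at 8.99, 8.76 and 8.97 on the WT arrays, at 8.40, 8.05 and 7.72 in Sos1KO, at 8.63, 7.98 and 8.60 in Sos2KO and at 7.90, 7.45 and 7.14 in Sos1/2DKO. Every knockout array was below every WT array, and the Sos1/2DKO arrays were below every Sos2KO array. The difference between Sos1/2DKO and WT was -1.41 on the log2 scale (SE 0.24, limma adjusted p = 0.00701). It was -0.85 (SE 0.24, adjusted p = 0.124) for Sos1KO and -0.51 (SE 0.24, adjusted p = 0.366) for Sos2KO, which did not pass. The call in Sos1/2DKO was made under all 25 alternatives run for it, with differences from -1.61 to -1.23.

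Slc16a3 levels were 9.06, 9.21 and 8.48 in WT, 8.44, 7.72 and 8.95 in Sos1KO, 8.23, 8.59 and 8.84 in Sos2KO and 7.89, 6.97 and 7.66 in Sos1/2DKO. The Sos1/2DKO arrays lay below every WT and every Sos2KO array, while the Sos1KO and Sos2KO arrays overlapped with WT. The difference from WT was -1.41 in Sos1/2DKO (SE 0.32, adjusted p = 0.0237), and it was not called without WT replicate 1 (-1.34, adjusted p = 0.0986), WT replicate 2 (-1.27, 0.0862) or Sos1/2DKO replicate 2 (-1.14, 0.0542). Slc16a1, the other lactate transporter among the members, had a difference of -0.21 (SE 0.22, adjusted p = 0.656). Slc16a7, a related transporter outside the set, went the other way, with means of 5.43 in WT and 6.32 in Sos1/2DKO. It was not called and was below the weak-signal guide on 5 arrays.

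Pfkp was at 9.05, 8.58 and 9.16 in WT, 8.34, 8.12 and 8.49 in Sos1KO, 8.24, 8.84 and 8.97 in Sos2KO and 8.24, 7.91 and 7.99 in Sos1/2DKO. All Sos1KO and Sos1/2DKO arrays were below the lowest WT array, and the Sos2KO arrays were not. The log2 difference was -0.88 in Sos1/2DKO (SE 0.22, adjusted p = 0.0313). The call was made under 16 of 25 alternatives. It was lost without WT replicate 1 (-0.82, adjusted p = 0.126), WT replicate 3 (-0.77, 0.126), Sos1/2DKO replicate 2 (-0.81, 0.0621) or Sos1/2DKO replicate 3 (-0.86, 0.0804). It was also lost with cyclic loess (adjusted p = 0.0535), all probe sets (0.0534), the high-GC background term (0.0592) and the arrays without the spike-in (0.0569). The other phosphofructokinase genes, Pfkl of liver and Pfkm of muscle, differed by -0.53 (SE 0.30) and 0.19 (SE 0.15) in Sos1/2DKO and did not pass.

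**Figure D2:**
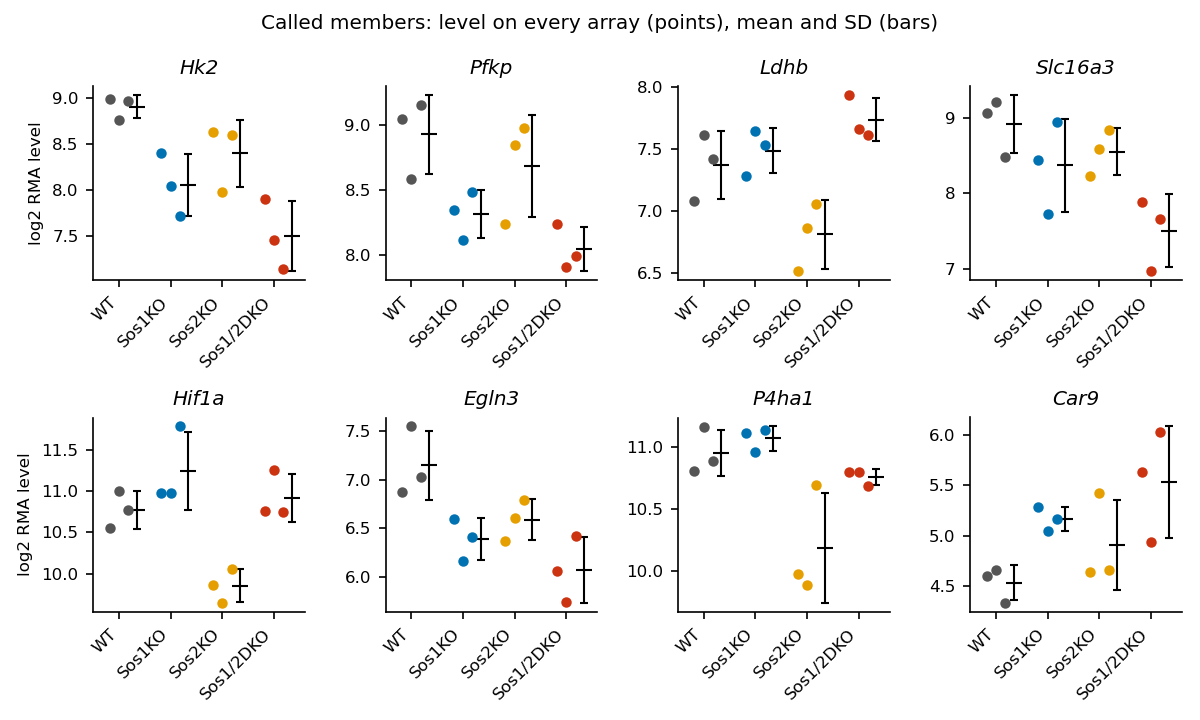
Log2 RMA level of the 8 members called in at least 1 comparison, with a point for each of the 3 arrays of a group and bars for the mean and SD. Each panel has its own axis, which does not start at 0. The Sos1/2DKO arrays are the lowest for Hk2 and Slc16a3 by their means, and the Sos2KO arrays are the lowest for Hif1a.

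Of the 18 transport and enzyme genes, 3 fell in Sos1/2DKO (16.7%, where 4.16% of all genes did), 0 rose and 15 did not pass. Of the 18, 15 had a difference below 0, with a median of -0.46, where 8312 of all 19505 genes were below 0. Phosphoglycerate kinase 1 (Pgk1), which makes ATP in glycolysis, was at 11.07, 10.89 and 10.77 in WT, 10.33, 10.40 and 11.18 in Sos1KO, 10.97, 10.84 and 10.86 in Sos2KO and 10.59, 10.11 and 9.81 in Sos1/2DKO. The Sos1/2DKO arrays were below all WT and all Sos2KO arrays, with a difference from WT of -0.74 (SE 0.24, adjusted p = 0.0923). This missed the threshold, and Pgk1 was called without Sos1KO replicate 3 (adjusted p = 0.0460) and without Sos1/2DKO replicate 1 (-0.95, adjusted p = 0.0489).

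Ldha, the lactate dehydrogenase subunit that favours lactate formation, was at 12.15, 12.04 and 12.05 in WT, 11.10, 11.58 and 12.02 in Sos1KO, 11.89, 11.79 and 11.84 in Sos2KO and 11.86, 11.41 and 11.13 in Sos1/2DKO. Every knockout array was below the lowest WT array, by differences of -0.61 (SE 0.22, adjusted p = 0.146) in Sos1/2DKO, -0.51 in Sos1KO and -0.24 in Sos2KO, none of which passed. The glucose transporter gene Slc2a1 was at 11.11, 11.00 and 10.97 in WT, 10.48, 10.37 and 11.15 in Sos1KO, 11.07, 10.53 and 11.24 in Sos2KO and 10.81, 10.22 and 10.71 in Sos1/2DKO. Its Sos1/2DKO arrays were below WT (-0.44, SE 0.24, adjusted p = 0.335), and the single knockouts overlapped with WT. Among the enzymes with no call, Tpi1 (-0.66), Pkm (-0.50), Pgam1 (-0.47), Aldoa (-0.37) and Gapdh (-0.21) had differences below 0 in Sos1/2DKO, and Pfkm, Aldoc (0.29) and Ldhb (0.37) had differences above 0.

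Egln3 was the member of the oxygen-sensing group that was called in Sos1/2DKO. It was at 6.87, 7.55 and 7.02 in WT, 6.60, 6.16 and 6.42 in Sos1KO, 6.37, 6.61 and 6.79 in Sos2KO and 6.07, 5.74 and 6.42 in Sos1/2DKO. Every knockout array was below every WT array, and the log2 difference was -1.07 (SE 0.22, adjusted p = 0.0158) in Sos1/2DKO, -0.75 (SE 0.22, adjusted p = 0.142) in Sos1KO and -0.56 (SE 0.22, adjusted p = 0.317) in Sos2KO. The call was lost without WT replicate 2 (-0.87, adjusted p = 0.0578), and 1 of the 3 Sos1/2DKO arrays was below the weak-signal guide. Egln1, the main oxygen sensor of most cells, had a difference of -0.41 (SE 0.18, adjusted p = 0.218), and Hif1a one of 0.15 (SE 0.24, adjusted p = 0.779).

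The 10 hypoxia-induced genes outside glycolysis did not move as a block in Sos1/2DKO, with 6 differences below 0 and 4 above, a median of -0.18, and 1 gene called. Car9 was at 4.60, 4.67 and 4.34 in WT, 5.29, 5.05 and 5.17 in Sos1KO, 4.64, 5.42 and 4.66 in Sos2KO and 5.63, 4.94 and 6.03 in Sos1/2DKO. The Sos1KO and Sos1/2DKO arrays were all above WT, but all 3 WT arrays and 9 of the 12 arrays in all were under the intron-control guide of 5.01 to 5.76, so the size of the rise is uncertain. Its difference in Sos1/2DKO was 1.00 (SE 0.27, adjusted p = 0.0453). The call was lost when any of 9 of the 12 arrays was left out, with differences from 0.75 without Sos1/2DKO replicate 3 (adjusted p = 0.145) to 1.06 without WT replicate 2 (0.0896).

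Ndrg1, a gene of stress and differentiation, was at 7.68, 7.94 and 7.72 in WT, 8.32, 8.12 and 8.26 in Sos1KO, 7.69, 8.88 and 8.01 in Sos2KO and 8.40, 9.28 and 8.34 in Sos1/2DKO. Its Sos1KO and Sos1/2DKO arrays were above every WT array, with a difference of 0.89 (SE 0.29, adjusted p = 0.101) in Sos1/2DKO, and it was called without Sos2KO replicate 2 (adjusted p = 0.0438). Bnip3, a mitophagy receptor, was at 8.56, 8.89 and 8.35 in WT, 8.94, 9.09 and 9.92 in Sos1KO, 8.22, 8.79 and 8.17 in Sos2KO and 9.27, 8.90 and 9.46 in Sos1/2DKO. Again all arrays without Sos1 were above WT, by a mean of 0.72 (SE 0.27, adjusted p = 0.286) in Sos1KO and 0.61 (adjusted p = 0.225) in Sos1/2DKO, neither called.

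Vegfa, which encodes the blood vessel growth factor VEGF-A, was at 8.94, 8.99 and 9.04 in WT, 9.07, 9.10 and 9.28 in Sos1KO, 7.77, 7.51 and 8.97 in Sos2KO and 8.22, 8.47 and 8.34 in Sos1/2DKO. The Sos1/2DKO arrays were below all WT and Sos1KO arrays, with a difference from WT of -0.65 (SE 0.28, adjusted p = 0.225). In Sos2KO, replicates 1 and 2 were lower still and replicate 3 was at the WT level, with a difference of -0.91 (SE 0.28, adjusted p = 0.282). Without Sos2KO replicate 3, Vegfa was called lower in Sos1/2DKO (-0.65, adjusted p = 0.0191) and in Sos2KO (-1.35, adjusted p = 0.0242).

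Of the 34 members, 14 had all Sos1/2DKO arrays below all WT arrays, against 12.6% of all genes, and 4 had them all above, against 11.9%. Other gene lists moved with the same comparison. The mean of the 14 measured cell-cycle genes ran from 8.44 to 9.06 on WT arrays and from 6.37 to 7.37 on Sos1/2DKO arrays, and all 14 were called lower. The 8 chondrocyte markers averaged 6.05 ± 0.04 (SD, n = 3) in WT and 7.48 ± 0.85 in Sos1/2DKO, and the 6 adipocyte markers 5.90 ± 0.20 and 6.74 ± 0.52. The 6 neural markers averaged 6.76 ± 0.13 in WT and 6.08 ± 0.27 in Sos1/2DKO, and the 6 epithelial markers 5.91 ± 0.29 and 5.33 ± 0.19, with no overlap for either. Much of their signal was weak. Of the epithelial markers, 3 were above the weak-signal guide on all WT arrays and 1 on all Sos1/2DKO arrays, and of the neural markers 3 and 3. The part of these lists in the differences of the glycolytic genes was not tested. With the spike-in as a term in the fit, 8 members were called, all lower, among 868 of all genes. On the 7 arrays without it 2 members were, Hk2 and Pgk1, among 377 of all genes. With the Y-linked level as a term, Hk2 and Car9 were called among 553 of all genes, while Slc16a3 (-1.17, adjusted p = 0.0894), Egln3 (-0.89, adjusted p = 0.0587) and Pfkp (-0.78, adjusted p = 0.113) were not.

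**Figure D3:**
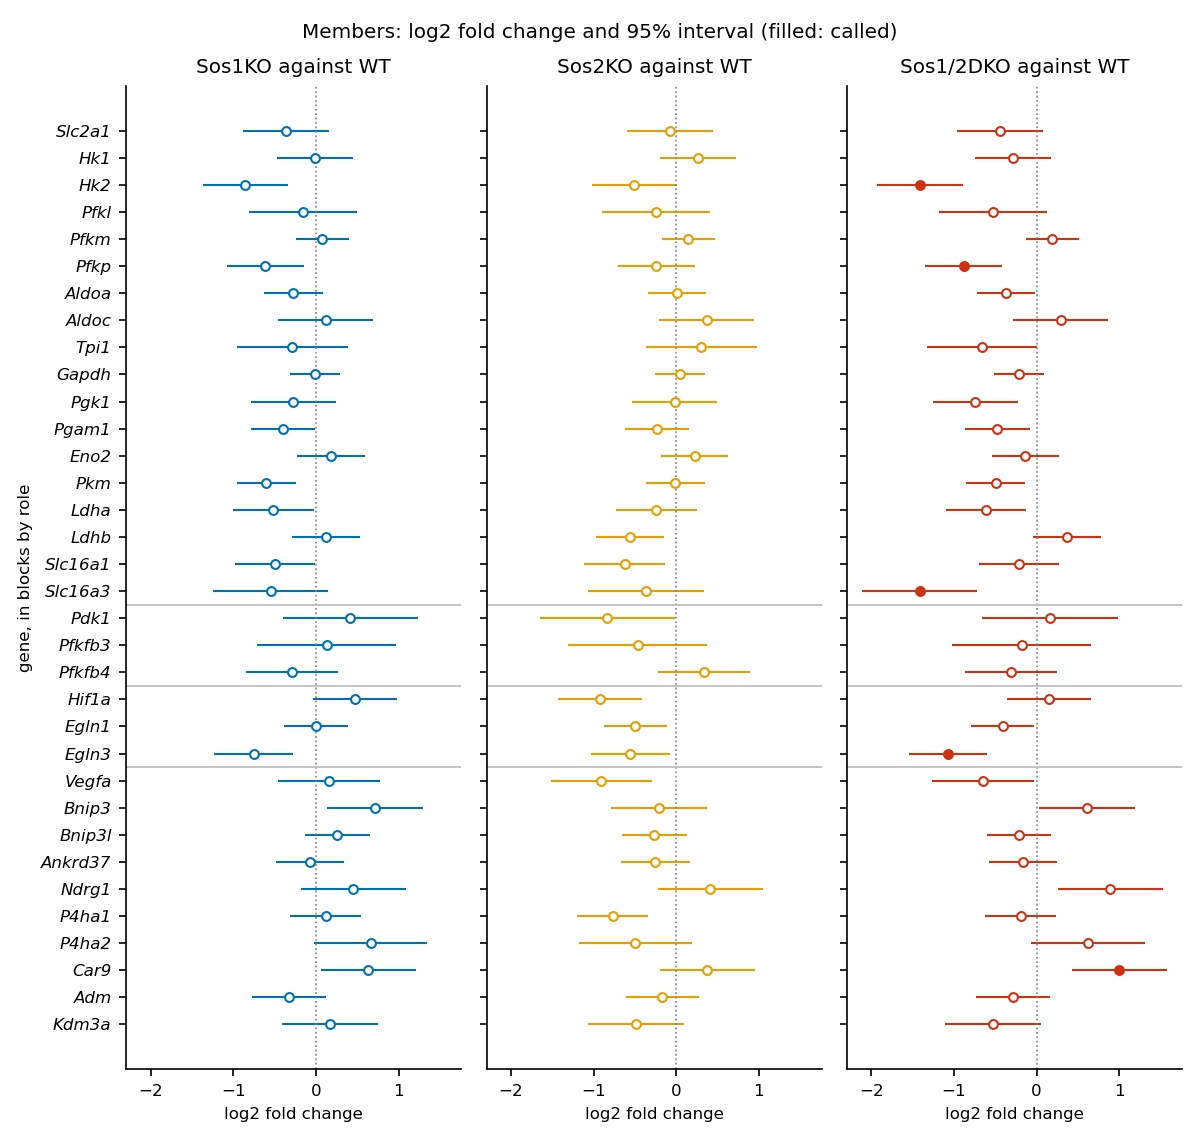
Log2 fold change against WT (point) with its 95% interval (line) for the 34 measured members in Sos1KO, Sos2KO and Sos1/2DKO, in 4 blocks by role. Filled points mark calls, of which the Sos1/2DKO panel has 5 and the others have 0.

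In Sos1KO, 0 of the 34 members were called against WT by limma, where 0.62% of all genes were, and 9 members (26.5%, where 11.1% of all genes did) had an unadjusted p under 0.05, of which 7 were lower and 2 higher. The median difference of the members was -0.01, and that of all genes 0.01. The groups by role lay apart: the 18 transport and enzyme genes had a median of -0.28 and 14 values below 0, while the 10 hypoxia-induced genes outside glycolysis had a median of 0.21 and 8 values above 0. No test of that contrast was run. Pyruvate kinase (Pkm), which takes the last step to pyruvate, was at 11.88, 11.62 and 11.80 on the Sos1KO arrays, below the 12.48, 12.45 and 12.17 of WT, a difference of -0.60 (SE 0.16, adjusted p = 0.116). All Sos1KO arrays lay below all WT arrays for 7 members (11.5% of all genes), namely Hk2, Pfkp, Aldoa, Pgam1, Pkm, Ldha and Egln3, and above them for 4 (10.4% of all genes), namely Vegfa, Bnip3, Ndrg1 and Car9. The 14 cell-cycle genes averaged 7.13 ± 0.42 (SD, n = 3) in Sos1KO and 8.81 ± 0.33 in WT, and the 6 neural markers 6.09 ± 0.15 and 6.76 ± 0.13, and their part in these differences was not tested.

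One Sos1KO array was set apart from the others. Sos1KO replicate 3, the only array of its group with the spike-in, was the highest of the 3 for 21 of the 34 members, and replicate 2 was the lowest for 21. Hif1a was at 11.78 on replicate 3 and at 10.97 on both other Sos1KO arrays. Pdk1, a kinase that switches pyruvate dehydrogenase off, was at 8.30 against 7.05 and 6.92. Pfkfb3, whose product activates phosphofructokinase, was at 8.41 against 7.33 and 7.31, and Bnip3 at 9.92 against 8.94 and 9.09. Hk2 ran the other way, with its lowest Sos1KO level, 7.72, on that array. Within Sos1KO the spread was largest for Pdk1 (SD 0.76), and within Sos1/2DKO for Pfkfb3 (SD 0.93), which was at 8.08, 7.73 and 6.32. The members' median SD within a group was highest in Sos1/2DKO (0.32, against 0.22 for Sos1KO, 0.21 for Sos2KO and 0.18 for WT), and that of all genes was 0.15, 0.16, 0.24 and 0.27 for WT, Sos1KO, Sos2KO and Sos1/2DKO. Sos1/2DKO replicate 1, the other array with the spike-in among groups that hold both kinds, was the highest of its group for 17 of 34 members. Split by role, this array was the highest for 15 of 18 transport and enzyme genes but 1 of 10 hypoxia-induced genes outside glycolysis. For Sos1KO replicate 3 the counts were 10 of 18 and 7 of 10.

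In Sos2KO, 0 members were called against WT, as were 0% of all genes, although 8 members (23.5%) and 2711 genes (13.9%) had an unadjusted p under 0.05. All 8 of these members were lower. The 3 genes of HIF1 and its sensors were all among them and did not overlap with WT. Hif1a was at 9.86, 9.65 and 10.05 in Sos2KO and at 10.55, 11.00 and 10.77 in WT, with 10.97, 10.97 and 11.78 in Sos1KO and 10.76, 11.26 and 10.74 in Sos1/2DKO. The Sos2KO arrays were below all other 9 arrays, and the difference from WT was -0.92 (SE 0.24, adjusted p = 0.278). Egln1 differed by -0.50 (SE 0.18, adjusted p = 0.302) and Egln3 by -0.56.

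P4ha1, a prolyl hydroxylase that modifies collagen, was at 9.97, 9.89 and 10.69 in Sos2KO, 10.81, 11.16 and 10.89 in WT, 11.11, 10.96 and 11.14 in Sos1KO and 10.80, 10.80 and 10.69 in Sos1/2DKO. The difference between Sos2KO and WT was -0.77 (SE 0.20, adjusted p = 0.278), and without Sos2KO replicate 3, the array nearest to WT, it was -1.02 and called (adjusted p = 0.0276). Its paralogue P4ha2 was at 8.58, 8.76 and 9.78 in Sos2KO, 9.57, 9.31 and 9.71 in WT, 9.70, 10.14 and 10.74 in Sos1KO and 10.41, 10.27 and 9.80 in Sos1/2DKO. Replicate 3 of Sos2KO was above every WT array for P4ha2 while the other 2 were below, and the difference of -0.49 (SE 0.32, adjusted p = 0.496) was not called. Without replicate 3, 720 of all genes were called between Sos2KO and WT, among them 2 members, P4ha1 and Vegfa.

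Over the 34 members the median difference of Sos2KO from WT was -0.24 (0.02 over all genes), with 11 members entirely below WT (10.7% of all genes) and 1, Tpi1, entirely above (9.47%). The transport and enzyme genes had a median of -0.05, and 11 of the 18 were below 0. Beside these differences, the macrophage markers, 14 of 15 measured, averaged 5.50 ± 0.51 (SD, n = 3) in Sos2KO, 6.60 ± 1.06 in WT, 6.86 ± 0.60 in Sos1KO and 6.03 ± 0.52 in Sos1/2DKO. Mrc1 was below the intron-control guide on all 12 arrays. Of the 14 markers, 6 were above the guide on every Sos2KO array, 8 on every WT, 11 on every Sos1KO and 8 on every Sos1/2DKO array. Background probes of high GC content were at 7.85 to 8.89 in Sos2KO and 7.59 to 7.84 in WT. With either as a term in the fit, 0 members and 0 of all genes were called, as without it. Over 24 alternatives the Hif1a difference ran from -1.20 to -0.63.

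Set against Sos2KO, Hif1a and Ldhb rose in Sos1/2DKO and Hk2 fell, which are 3 of 34 members (8.82%) where 6.14% of all genes were called. Of these, 2 rose against a background of 3.33% and 1 fell against 2.8%. Hif1a was 2.09-fold higher in Sos1/2DKO than in Sos2KO (1.06, SE 0.24, adjusted p = 0.0213), and not called without Sos2KO replicate 1 (adjusted p = 0.0722), Sos2KO replicate 2 (0.0818) or Sos1/2DKO replicate 2 (0.0619). Ldhb, the lactate dehydrogenase subunit of oxidative tissues, was at 7.94, 7.66 and 7.61 in Sos1/2DKO and 6.51, 6.86 and 7.06 in Sos2KO, with 7.08, 7.61 and 7.42 in WT and 7.28, 7.64 and 7.53 in Sos1KO. Its groups did not overlap between Sos1/2DKO and Sos2KO (0.93, SE 0.19, adjusted p = 0.0161), and the call was lost without Sos2KO replicate 1 (0.78, adjusted p = 0.0709). With array weights Hif1a was not called (0.99, adjusted p = 0.0669), and with the groups compared alone Ldhb was not (0.93, 0.0576). Hk2 was 1.87-fold lower (-0.90, SE 0.24, adjusted p = 0.0421) and was called under 9 of 24 alternatives. Its call was lost when any of 8 arrays was left out, with adjusted p up to 0.151 without Sos2KO replicate 1. It was also lost with all probe sets (0.0642), array weights (0.0961), the groups compared alone (0.119) and the macrophage (0.0857) and Y-linked (0.0559) terms. With the spike-in as a term in the fit, 0 members were called and 289 of all genes were. Differences were then 1.25 for Hif1a (adjusted p = 0.0531), 1.05 for Ldhb (0.0518) and -0.87 for Hk2 (0.185). With the high-GC background as a term, 0 members were called either, and 194 of all genes were. Differences were then 0.86 for Hif1a (adjusted p = 0.167), 0.91 for Ldhb (0.0911) and -1.02 for Hk2 (0.130).

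Between Sos1KO and Sos2KO, Hif1a and P4ha1 were higher in Sos1KO, 2 of 34 members (5.88%) where 4.29% of all genes were called and 2.8% were called higher. Hif1a was 2.62-fold higher (1.39, SE 0.24, adjusted p = 0.0167) and P4ha1 1.85-fold (0.88, SE 0.20, adjusted p = 0.0313). The Hif1a call was lost without Sos1KO replicate 2 (adjusted p = 0.0590), Sos1KO replicate 3 (1.12, 0.0560), Sos2KO replicate 1 (0.0728) or Sos2KO replicate 2 (0.0790). The P4ha1 call was lost without any 1 of the 3 Sos1KO arrays or Sos2KO replicates 1 and 2, with differences from 0.74 to 0.94. All Sos1KO arrays were above all Sos2KO arrays for 6 of the 10 hypoxia-induced genes outside glycolysis, and for 11 of all 34 members (13.6% of all genes), with 5 members entirely below (12.3%). The median difference of those 10 was 0.59 and that of the 18 transport and enzyme genes -0.25, with -0.03 over all genes. With the spike-in, the macrophage level or the high-GC background in the fit, 0 members were called. Of all genes, 12, 0 and 1 were called with these terms in that order, against 836 without them. The Hif1a difference was then 1.58 (adjusted p = 0.0615), 1.33 (0.143) and 1.11 (0.357) in that order, and the P4ha1 difference 0.94 (adjusted p = 0.118), 0.80 (0.242) and 0.45 (0.629). The comparisons with Sos2KO share its 3 arrays, and those with WT share the WT arrays.

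Between Sos1/2DKO and Sos1KO, 0 members were called by limma, where 0.00513% of all genes (1 gene) were, and 6 members (17.6%, where 7.20% of all genes did) had an unadjusted p under 0.05, all lower in Sos1/2DKO. They were Slc16a3 (-0.87, SE 0.32, adjusted p = 0.632), Vegfa (-0.81, SE 0.28, adjusted p = 0.608), Kdm3a, a histone demethylase (-0.69), Hk2 (-0.56, SE 0.24, adjusted p = 0.682), the mitophagy receptor Bnip3l (-0.47) and Egln1 (-0.41). Of these, Vegfa and Bnip3l had no overlap between the arrays of the 2 groups, and over all members 4 lay entirely lower (4.94% of all genes) and 2 entirely higher (6.45%). The test of whether the change with loss of Sos2 differs between cultures with and without Sos1 called 0 members, and 0% of all genes, and 2 members (5.88%) had an unadjusted p under 0.05, close to the 4.93% of all genes, namely Slc16a1 (0.90, SE 0.32, adjusted p = 0.907) and Ldhb (0.81, SE 0.27, adjusted p = 0.907).

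Pathways next to glycolysis and HIF1 were read from 6 further lists with 84 measured genes. Between Sos1/2DKO and WT, 1 of 20 other glycolysis genes was called, 0 of 7 genes of gluconeogenesis, 1 of 12 genes of pyruvate import and pyruvate dehydrogenase, 0 of 6 of the pentose phosphate pathway, 1 of 14 other HIF regulators and 2 of 25 other HIF targets. These 5 of 84 genes are 5.95%, next to 5.94% of all genes, so as a group the lists were called about as often as other genes, and their called genes are given as single values. The median differences of these lists were -0.04, 0.17, 0.07, -0.18, 0.07 and 0.01 in that order, where that of all genes was 0.05. Pdk2, which switches pyruvate dehydrogenase off, rose and was at 7.91, 8.19 and 7.96 in WT, 8.72, 8.96 and 8.75 in Sos1KO, 8.34, 8.96 and 8.41 in Sos2KO and 9.31, 8.65 and 8.75 in Sos1/2DKO. Every knockout array was above every WT array, with a difference of 0.89 (SE 0.21, adjusted p = 0.0267) in Sos1/2DKO, called under 19 of 25 alternatives and lost without WT replicate 1 (adjusted p = 0.112), WT replicate 3 (0.0923) or Sos1/2DKO replicate 1 (0.68, 0.0816).

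Ppp1r3c, which brings protein phosphatase 1 to glycogen, rose more, from 6.10, 5.85 and 6.19 in WT to 7.77, 8.35 and 7.04 in Sos1/2DKO. Its levels were 6.16, 6.56 and 7.65 in Sos1KO and 6.14, 6.37 and 5.97 in Sos2KO, so the single knockouts reached into the WT range. The difference between Sos1/2DKO and WT was 1.67 (SE 0.36, adjusted p = 0.0179), lost without any 1 WT array (highest adjusted p = 0.0703) or Sos1/2DKO replicate 1 (0.0527). Insig2, which restrains cholesterol synthesis, fell (-0.93, SE 0.24, called under 11 of 25 alternatives), as did Eloc, a subunit of the ligase that degrades HIF (-0.86, SE 0.20, under 14), and the phosphoglucomutase Pgm2 (-0.73, SE 0.20, under 6).

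**Figure D4:**
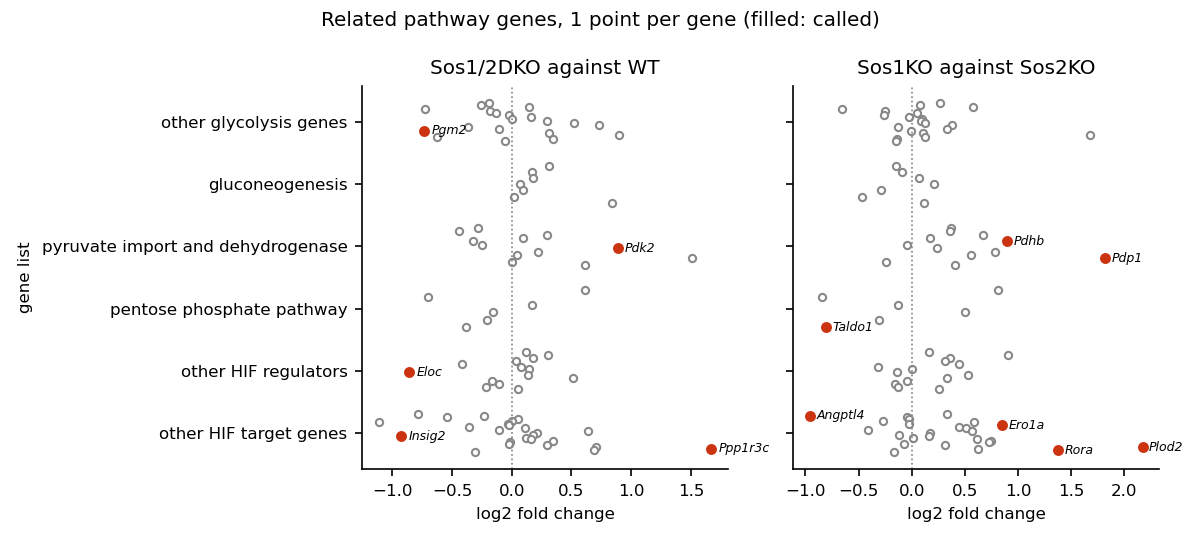
Log2 fold change of the 84 measured genes of 6 related lists between Sos1/2DKO and WT (left) and between Sos1KO and Sos2KO (right), with 1 point per gene. Filled, named points are called, 5 on the left and 7 on the right, and Plod2 has the largest fold change among the called genes on the right.

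Against Sos2KO, 6 of the 84 genes (7.14%, where 6.14% of all genes were) were called in Sos1/2DKO and 7 (8.33%, where 4.29% were) in Sos1KO. The collagen lysyl hydroxylase Plod2 and the phosphatase Pdp1, which switches pyruvate dehydrogenase back on, were higher than in Sos2KO both in Sos1/2DKO and in Sos1KO. Plod2 was at 8.57, 8.15 and 9.13 in Sos2KO, 9.18, 10.29 and 10.28 in WT, 10.16, 11.06 and 11.17 in Sos1KO and 10.34, 10.93 and 10.60 in Sos1/2DKO. The Sos2KO arrays lay below all others, and the differences were 2.00 for Sos1/2DKO (SE 0.35, adjusted p = 0.00969) and 2.18 for Sos1KO (SE 0.35, adjusted p = 0.0157). The second call was lost without Sos1KO replicate 2 (adjusted p = 0.0660) or 3 (0.0597) or Sos2KO replicate 1 (0.0674) or 2 (0.0702). Pdp1 was at 6.31, 5.73 and 7.22 in Sos2KO, 6.95, 6.80 and 7.47 in WT, 7.30, 8.27 and 9.16 in Sos1KO and 8.47, 9.10 and 8.18 in Sos1/2DKO. It differed by 2.16 in Sos1/2DKO (SE 0.45, adjusted p = 0.0167, called under 20 of 24 alternatives and lost without Sos2KO replicate 1 or 2 or Sos1/2DKO replicate 2) and by 1.82 in Sos1KO (adjusted p = 0.0418, under 9 of 24). The latter call was lost without 8 of the 12 arrays, with adjusted p up to 0.166 without Sos2KO replicate 2. With the high-GC background as a term, neither gene was called in either comparison (for Plod2, 1.70 with adjusted p = 0.0832 and 1.75 with 0.349). The calls in Sos1KO were also lost with the spike-in term, at 2.22 for Plod2 (adjusted p = 0.0726) and 2.23 for Pdp1 (0.0926). They were lost with the macrophage term too, at 2.14 (adjusted p = 0.122) and 2.39 (0.131). The calls in Sos1/2DKO were kept with both of these terms.

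Of the 6 pentose phosphate genes, transaldolase (Taldo1) was lower than in Sos2KO in Sos1/2DKO (-0.83, SE 0.18) and in Sos1KO (-0.81), and Pgd, a dehydrogenase that yields NADPH, was lower in Sos1/2DKO (-0.98, SE 0.24). The pyruvate dehydrogenase subunit gene Pdhb (0.90, SE 0.23), the nuclear receptor gene Rora (1.38, SE 0.26) and the oxidase Ero1a of the endoplasmic reticulum (0.85, SE 0.22) were higher in Sos1KO than in Sos2KO, and Angptl4, an inhibitor of lipoprotein lipase, was lower (-0.96, SE 0.24). Rora, read from 1 of its 3 probe sets, was also called higher in Sos1/2DKO than in Sos2KO (1.08). Between 8 and 18 of 24 alternatives called each of these differences. With the spike-in, macrophage or high-GC background term, none of those between Sos1KO and Sos2KO was called. The lowest adjusted p was then 0.133, for Rora with the spike-in term. Between Sos1/2DKO and Sos2KO, the calls of Taldo1, Pgd and Rora were lost with the spike-in and the high-GC background terms. Those of Pgd (-0.88, adjusted p = 0.0667) and Rora (1.01, 0.0642) were also lost with the macrophage term. Ppp1r3c was also called higher in Sos1/2DKO than in Sos2KO, at means of 7.72 and 6.16. This call was lost with the high-GC background term (1.62, adjusted p = 0.118). It was also lost without any 1 of the Sos2KO arrays (highest adjusted p = 0.0821) or Sos1/2DKO replicate 2 (0.0728).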

How the data were processed

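RNA was hybridised to 12 Affymetrix arrays, 3 for each of 4 genotypes, and sample titles gave the groups. Per the submitters' processing notes, RMA in R 3.6.3 gave the values. The value table the authors deposited holds log2 levels of 29129 probe sets. Per the file headers, the authors' deposited tables against WT hold log2 fold changes and adjusted p-values, and differences of group means in the value table equal those fold changes to within 6.22e-09, which fixes scale and direction. The build the authors used is not given in the sources used here. Since RMA values come without a detection call, weak signal was judged against 5222 probe sets of intron controls, whose 75th percentile was 5.01 to 5.76. Precision is limited by how many arrays there are.

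The platform annotation gave 1 symbol to 19572 probe sets, several to 0 and none to 9557, and all 19572 were found in the RefSeq table of GRCm38.p6. Where a gene had more than 1 probe set (55 genes), that with the highest mean was kept, which left 19505 genes. A limma 3.58.1 model (R 4.3.3) of the 4 group means on all 12 arrays left 8 residual degrees of freedom, and its moderated two-sided p-values were adjusted by Benjamini-Hochberg over the 19505 genes. The 6 pairs of groups and the interaction of the 2 deletions were compared. The members, the lists and the tests were chosen with earlier results of these data known. Values on every array are given for members called in any pair, for Hif1a, Vegfa, Slc2a1, Ldha and Pgk1, and for the 2 largest and 2 smallest differences of each comparison with WT. Of the related lists, up to 4 called genes per list and comparison are named, and other members are examples.

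Promoter windows came from RefSeq, where 32 of the 34 measured members matched. The scripts were tested on simulated data. Alternative settings covered normalization (cyclic loess, median centring), probe sets (all of them, or genes above the 30th percentile of the mean), the variance model (trended robust prior, array weights), the groups compared alone, the replicate number as a block, terms for the spike-in and for the Y-linked, macrophage and high-GC background levels, the arrays without the spike-in, the authors' cutoff of 0.25, and each of the 12 arrays left out.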

Additional observations from a re-analysis of the deposited data

How the results depend on the processing

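Numbers of members called moved with the settings, and in none of the alternatives run did the difference behind a call change direction. Between Sos1/2DKO and WT, where 5 were called, 3 were with all probe sets or the high-GC background term, 8 with the spike-in term, 2 on the arrays without the spike-in or with the Y-linked term, and 14 at the cutoff of 0.25. Of all genes, 1158 were called in the main fit, 936 with the high-GC background term, 868 with the spike-in term and 3829 at 0.25. On the arrays without the spike-in 377 genes were, and with the Y-linked term 553. With all probe sets, 872 of them were called. Between Sos1/2DKO and Sos2KO, where 3 were called, 1 was with the groups compared alone, 0 with the spike-in or the high-GC background term and 17 at 0.25. All genes called there were 1197 in the main fit, 466 with the groups alone, 289 and 194 with the 2 terms and 4618 at 0.25. Between Sos1KO and Sos2KO, where 2 were called, 4 were with cyclic loess, the dim-gene filter or the trended robust prior, 8 with array weights, 1 with the groups compared alone or the Y-linked term, 0 with the spike-in, macrophage or high-GC background term and 12 at 0.25. All genes called in this pair were 836 in the main fit and, in the order given, 905, 943, 830, 2540, 576, 345, 12, 0, 1 and 4294. Between Sos1KO and WT, where 0 were called, 6 were with array weights and 4 at 0.25, while all genes called went from 121 to 1680 and 1112. Leaving out 1 array in turn gave 0 to 2 members for Sos2KO against WT, 2 to 6 for Sos1/2DKO against WT, 0 to 7 for Sos1/2DKO against Sos2KO, 0 to 6 for Sos1KO against Sos2KO and 0 throughout for Sos1KO against WT, Sos1/2DKO against Sos1KO and the interaction. The counts over all genes in the first 4 of these were 0 to 720, 268 to 1504, 339 to 1660 and 3 to 1870. A looser cutoff calls more by construction, and the cause of the other shifts was not tested. The labels do not say whether the replicate numbers pair the arrays. Deviations of same-numbered arrays from their group means correlated between -0.35 and 0.30, with 6 of 18 pairs over 0.1. With 3 arrays per group, these values cannot decide the question. With the replicate number as a block, 4 members were called between Sos1/2DKO and WT (Car9 was not), 3 between Sos1/2DKO and Sos2KO, 2 between Sos1KO and Sos2KO and 0 in the other comparisons. All genes called were then 925, 1042 and 709 in the first 3 comparisons named. The filter on dim genes left 33 of the 34 members and removed Car9, which 9 of 12 arrays put under the weak-signal guide.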

Other observations

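The authors' deposited table for Sos1/2DKO against WT, which extends to an adjusted p of 0.25, lists 10 of the 34 measured members. It lists 2507 probe sets in all, of the 29129 in the value table. The 10 members are Hk2 (adjusted p = 0.0411), Slc16a3 (0.0760), Pfkp (0.0961), Vegfa (0.0971), Egln3 (0.0981), Car9 (0.160), Ndrg1 (0.186), Pgk1 (0.193), P4ha2 (0.238) and Ldha (0.243). Only Hk2 is under 0.05 in the authors' deposited table, where 5 members are under 0.05 in the fit of all 4 groups to named genes. The authors' deposited table for Sos1KO against WT lists 2306 of the 29129 probe sets and 7 of the 34 members. Hk2, Egln3, Pfkp, Pkm and Pgam1 have a fold change below 0 and Car9 and Ndrg1 one above 0, at adjusted p from 0.105 to 0.220. The authors' deposited table for Sos2KO against WT lists 59 probe sets and 0 members.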
